A study of Homo sapiens with 9 samples.

Results

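The genes described here are 10 members of the KCNK family, which encodes the background potassium channels whose subunits carry a pair of pore domains (K2P channels). The members are KCNK1, KCNK2, KCNK3, KCNK5, KCNK6, KCNK9, KCNK10, KCNK12, KCNK13 and KCNK15, and they were 10 of the 57163 genes in the deposited table. They were chosen by name with their fold changes against the control library already known, so the levels and fold changes of these genes are given as a description, with no test. The 5 other K2P genes of the table (KCNK4, KCNK7, KCNK16, KCNK17 and KCNK18) are given by their counts.

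RNA was sequenced from human 293T cells, a line derived from embryonic kidney, 48 h after transfection, with 1 library for each of 9 conditions. The control library, labelled blank, came from cells that received the empty plasmid according to the study's methods. In 4 libraries the cells overexpressed NRF1, E2F4, EGR1 or ZBTB7A, which the study calls conserved lncRNA-binding transcription factors (CLB_TFs), and in 4 others they overexpressed HOXA11, RORA, TFCP2 or NKX2-8 as control TFs. The 8 TF plasmids had an EGFP cassette and the EF1A promoter before the TF insert, so the TF levels were those of a strong constitutive promoter in 1 cell line. With 1 library per condition no difference has a replicate check, and the intervals below cover counting error only.

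K2P channels pass potassium ions near the resting potential with little gating by voltage, and so set the resting membrane potential and the input resistance of a cell. Each functional channel is a dimer of subunits, and the subfamilies differ in what opens or closes them: TREK channels (KCNK2, KCNK10) respond to membrane stretch, lipids and temperature, TASK channels (KCNK3, KCNK9) to extracellular acid, and TASK-2 (KCNK5) to alkaline pH. TWIK (KCNK1, KCNK6) and THIK (KCNK12, KCNK13) channels carry small or halothane-inhibited currents. In the kidney, KCNK1 and KCNK5 are known from the tubule epithelium, while KCNK2, KCNK9, KCNK10 and KCNK12 are best known from neurons.

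The total count per library ran from 14177970 to 18915400, with a median of 17016549. Levels are given as CPM, the read counts per 1000000 reads of the library, after scaling by TMM (trimmed mean of M-values), whose factors ran from 0.972 to 1.08. More genes had a count in NRF1 (26166) and EGR1 (26296) cells than in the other 7 libraries (23344 to 24593). Each of the 8 inserted TFs was highest in its own library, at 28.4-fold (TFCP2) to 1182-fold (NKX2-8) the control library. All 8 markers listed for 293T cells reached 1 CPM, whereas the leukocyte markers PTPRC, CD3E and LYZ had 0 to 2 counts and HBB had 0 in every library. The fibroblast marker COL1A1 had 368 to 621 counts. The part of these differences between libraries in the KCNK values was not tested.

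A KCNK gene was called risen or fallen in a TF library when its level differed from that of the control library at least 2-fold, on a log2 fold change (log2FC) with a prior count of 2, and reached 1 CPM in the higher library. By this rule 6 of the 10 KCNK genes rose in the NRF1 library and 6 in the E2F4 library, 4 rose with ZBTB7A, 3 with EGR1 and 1 with NKX2-8. No KCNK gene rose in the HOXA11, RORA or TFCP2 library, and none fell in any of the 8. KCNK9, KCNK12 and KCNK13 were the members that rose in all 4 CLB_TF libraries, KCNK2 rose in 3 of them (NRF1, E2F4 and ZBTB7A) and KCNK10 in 2 (NRF1 and E2F4). KCNK3 was called in the NRF1 library and KCNK5 in the E2F4 library, each in no other, while KCNK1, KCNK6 and KCNK15 were called in none.

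Over all genes that reached 1 CPM, the share that rose against the control library was 8.24% in the NRF1 library, 3.68% in E2F4, 2.5% in EGR1, 1.92% in ZBTB7A, 1.17% in HOXA11, 0.522% in RORA, 0.491% in TFCP2 and 2.83% in NKX2-8. The share that fell was 0.235% in NRF1, 0.261% in E2F4, 0.28% in EGR1, 0.439% in ZBTB7A, 0.34% in HOXA11, 0.393% in RORA, 0.185% in TFCP2 and 0.879% in NKX2-8. Of the 10 KCNK genes, 9 reached 1 CPM in the NRF1 or control library, 7 for E2F4, 6 each for EGR1 and ZBTB7A, 5 for NKX2-8 and 3 each for HOXA11, RORA and TFCP2. The median log2FC over all 10 KCNK genes was 2.19 in the NRF1 library, 2.01 in E2F4, 1.23 in EGR1 and 1.40 in ZBTB7A (0.93 with KCNK10 at its bound, given below), and between 0.13 and 0.28 in the 4 control TF libraries. The medians over all genes that reached 1 CPM lay between -0.04 and -0.0016. The members' medians also took in genes under 1 CPM, so the sets differ in this. Since the choice of the genes used these same fold changes, nothing is read from the members' counts against the shares over all genes.

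The nearest calls on either side of the 2-fold threshold were at KCNK5, KCNK13 and KCNK1. Just inside it lay KCNK5 in the E2F4 library (log2FC 1.07), KCNK13 in the ZBTB7A library (1.10) and KCNK13 in the EGR1 library (1.19). Just outside it, among genes above 1 CPM, lay KCNK1 in the NKX2-8 library (-0.49) and KCNK5 in the NRF1 (0.46) and NKX2-8 (0.42) libraries, so no KCNK gene above 1 CPM had a value between 0.49 and 1.07 on either side of 0.

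**Figure D1:**
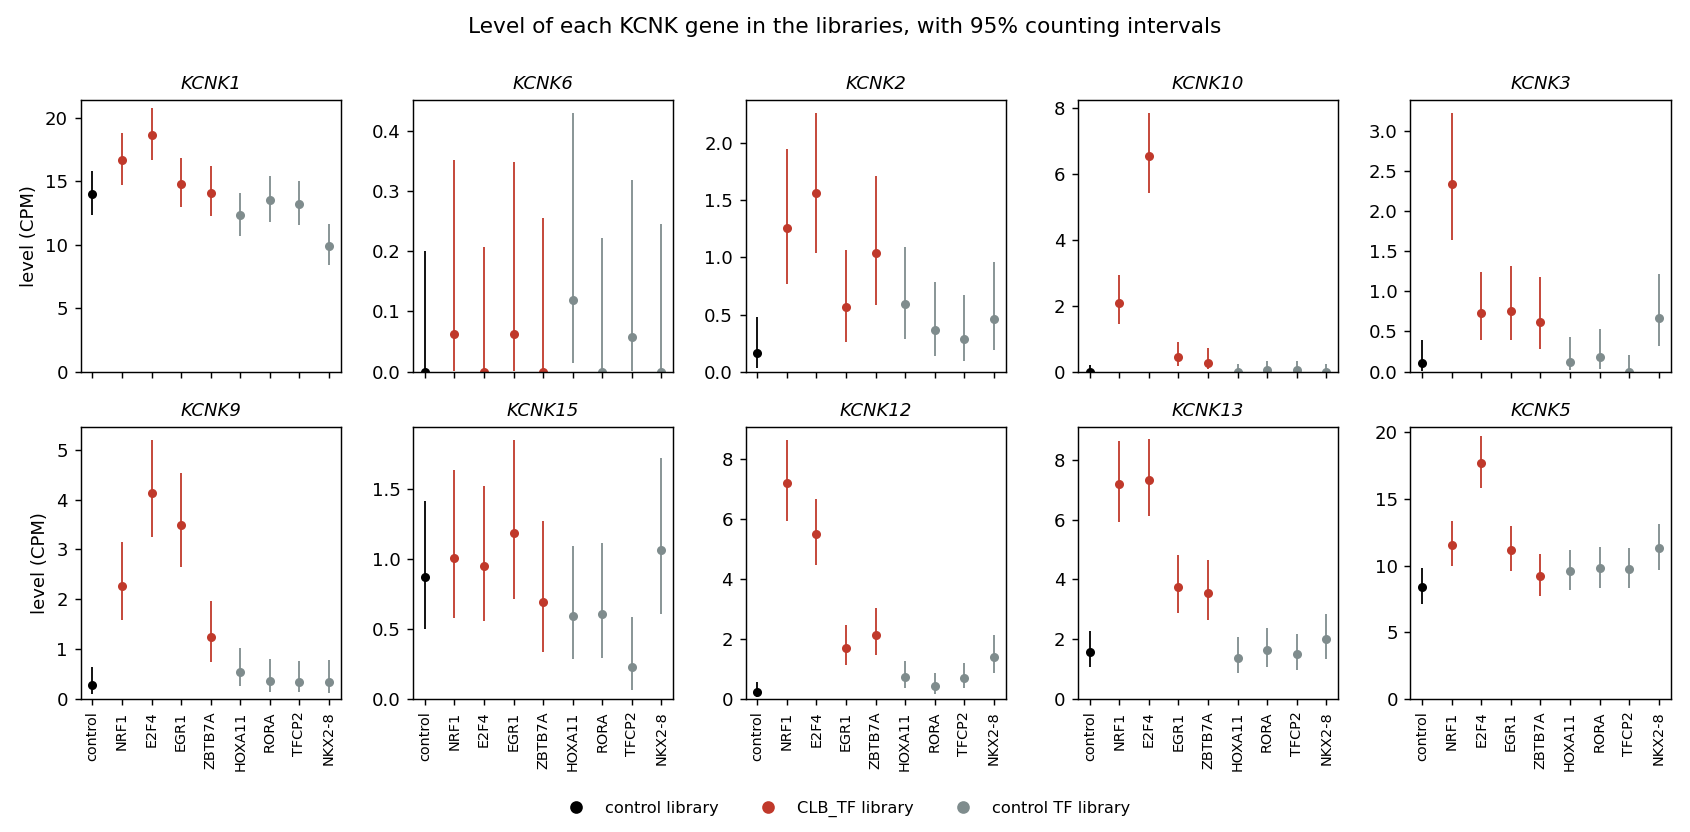
Level of each of the 10 KCNK genes in the 9 libraries, in CPM with exact 95% Poisson intervals of the count; each panel has its own scale. Black marks the control library, red the 4 CLB_TF libraries and grey the 4 control TF libraries. KCNK10 stood at 6.55 CPM in the E2F4 library and at 0 in the control, while KCNK1 lay between 9.89 and 18.6 CPM throughout.

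The bases before the transcription start are shown for KCNK10, the gene with the widest contrast, and for KCNK5, which was expressed in every library and was called with E2F4 and no other TF. They are the 250 bases before the RefSeq start (promoter table of build GRCh38.p14), each matched exactly once in GRCh37, the build of the deposited table: chr14:88793257-88793506 for KCNK10 and chr6:39197252-39197501 for KCNK5, both read on the minus strand, 5′ to 3′, and both outside the annotated gene. KCNK10 has another RefSeq start, whose window (chr14:88737256-88737505) lies inside the annotated gene and is not shown. Letters in capitals mark a match to a consensus motif of an inserted TF, and neither window shown held one.
KCNK10: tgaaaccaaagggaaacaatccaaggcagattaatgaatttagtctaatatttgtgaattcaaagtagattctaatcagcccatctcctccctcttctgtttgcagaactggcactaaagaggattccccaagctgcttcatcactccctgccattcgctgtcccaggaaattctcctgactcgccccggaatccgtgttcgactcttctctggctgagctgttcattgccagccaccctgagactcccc
KCNK5: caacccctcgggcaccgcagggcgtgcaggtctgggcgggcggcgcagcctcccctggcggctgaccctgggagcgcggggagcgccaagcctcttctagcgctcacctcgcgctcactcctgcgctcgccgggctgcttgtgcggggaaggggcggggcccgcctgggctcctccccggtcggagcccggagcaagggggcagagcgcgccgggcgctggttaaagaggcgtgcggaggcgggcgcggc

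The KCNK5 window is rich in C and G (76.0% of the 300 bases in the RefSeq entry, with 39 CG pairs). The window shown for KCNK10 is less so (51.7%, with 10 CG pairs), and the one not shown had 56.3%, with 6 CG pairs. The median over all 35116 promoters of the table was 58.7%, with 14 CG pairs. Matches occurred at 2 members. At KCNK1, which rose in no library, a pair of overlapping EGR1 motifs (GCGGGGGCG) began 23 and 17 bases before the start (chr1:233749822-233749851, plus strand, inside the annotated gene). At KCNK13, which rose in all 4 CLB_TF libraries, an E2F motif (TTTCCCGC, read here as GCGGGAAA on the opposite strand) began 230 bases before the RefSeq start (chr14:90528097-90528126, plus strand, across the annotated gene start at 90528109).
KCNK1: ggcccggGCGGGGGCGGGGGCGgcggggcc
KCNK13: accgtctctttGCGGGAAActcgagttggc

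The motifs were searched as exact letters on both strands: GCATGCGC for NRF1, TTTCCCGC, TTTGGCGC, TTTCGCGC and TTTGCCGC for E2F, GCGTGGGCG and GCGGGGGCG for EGR1, CGACCACCG for ZBTB7A, GTCGTAAA for HOXA11, TAGGTCA for RORA, AACCGGTT for TFCP2 and CCACTTGA for NKX2-8. Of all promoters in the table, 3.05% held the NRF1 motif, 3.31% one of the E2F motifs, 5.77% one of the EGR1 motifs, 0.165% that of ZBTB7A, 0.174% that of HOXA11, 1.85% that of RORA, 0.134% that of TFCP2 and 0.658% that of NKX2-8. RefSeq entries were found for 7 of the 10 KCNK genes (9 promoters, with 2 each for KCNK2 and KCNK10). KCNK9, KCNK12 and KCNK15 had no entry. No motif of the list was found in the windows of KCNK2, KCNK3, KCNK5, KCNK6 or KCNK10.

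Among the TREK genes, KCNK10 (TREK-2, ENSG00000100433, chr14:88646447-88793251, minus strand) went from no counts in the control to over 1 CPM with E2F4 or NRF1. KCNK10 had 0 counts in the control library, 33 in NRF1, 117 in E2F4, 7 in EGR1, 4 in ZBTB7A, 0 in HOXA11, 1 in RORA, 1 in TFCP2 and 0 in NKX2-8. The CLB_TF libraries thus all lay above the control TF libraries, and the E2F4 library held 117 of the 163 counts of this gene. Set against the floor of 3 counts that a count of 0 allows in the control library, the KCNK10 level was 40.2-fold in E2F4 and 12.8-fold in NRF1. For EGR1 the same bound was 2.68-fold and for ZBTB7A 1.69-fold, at levels of 0.437 and 0.276 CPM, and neither was called. This bound covers the control count alone. The exact 95% interval of the ratio, which also covers the TF count, began at 32.1 in E2F4 and 9.81 in NRF1. It began at 1.66 in EGR1 and at 0.839 in ZBTB7A, where it took in 1. Between the libraries that expressed it, the KCNK10 level was 6.55 CPM in E2F4 and 2.08 CPM in NRF1, with 95% intervals that did not overlap.

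KCNK2 (TREK-1, ENSG00000082482, chr1:215179118-215410436, plus strand) forms the stretch- and lipid-activated channel best known from brain and heart. It had 3 counts in the control library, 20 in NRF1, 28 in E2F4, 9 in EGR1, 15 in ZBTB7A, 10 in HOXA11, 6 in RORA, 5 in TFCP2 and 7 in NKX2-8. The control library was the lowest of the 9, and the CLB_TF and control TF libraries overlapped at EGR1 and HOXA11. The CPM ratio to the control was 9.61 in the E2F4 library (95% interval 2.97 to 49.4), 7.73 in NRF1 (2.29 to 40.6) and 6.35 in ZBTB7A (1.80 to 34.2). These wide intervals come from the 3 counts of the control library, and KCNK2 reached 1 CPM in those 3 TF libraries alone.

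Among the THIK genes, KCNK12 rose in 5 libraries and KCNK13 in 4. KCNK12 (THIK-2, ENSG00000184261, chr2:47743720-47798078, minus strand) encodes a subunit that gives little current alone and is held back in the endoplasmic reticulum. It had 4 counts in the control library, 114 in NRF1, 98 in E2F4, 27 in EGR1, 31 in ZBTB7A, 12 in HOXA11, 7 in RORA, 12 in TFCP2 and 21 in NKX2-8. The control library was again the lowest, and the 4 CLB_TF libraries (1.69 to 7.19 CPM) lay above the 4 control TF libraries (0.423 to 1.39 CPM). Against the control, the KCNK12 ratio was 33.1 in NRF1 (12.6 to 123), 25.2 in E2F4 (9.54 to 94.4), 9.85 in ZBTB7A (3.48 to 38.4) and 7.75 in EGR1 (2.70 to 30.5). KCNK12 was also the single KCNK gene that rose with a control TF, at a ratio of 6.41 in the NKX2-8 library (2.16 to 25.7). The ratios in HOXA11 (3.28) and TFCP2 (3.16) were above 2 as well, but the levels there were under 1 CPM.

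KCNK13 (THIK-1, ENSG00000152315, chr14:90528109-90652201, plus strand) encodes the halothane-inhibited channel known for setting the resting potential of microglia. Its lowest count in any library was 23: it had 29 counts in the control, 114 in NRF1, 131 in E2F4, 60 in EGR1, 51 in ZBTB7A, 23 in HOXA11, 27 in RORA, 26 in TFCP2 and 30 in NKX2-8. The control library (1.58 CPM) lay among the 4 control TF libraries (1.37 to 1.99 CPM), and the CLB_TF libraries (3.52 to 7.33 CPM) lay above them all. The ratio to the control was 4.65 in E2F4 (3.09 to 7.22), 4.56 in NRF1 (3.01 to 7.11), 2.38 in EGR1 (1.50 to 3.84) and 2.24 in ZBTB7A (1.39 to 3.66). In the control TF libraries the log2FC ran from -0.19 (HOXA11) to 0.31 (NKX2-8). Beside KCNK5, KCNK13 was the one risen gene with more than 5 counts in the control library.

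**Figure D2:**
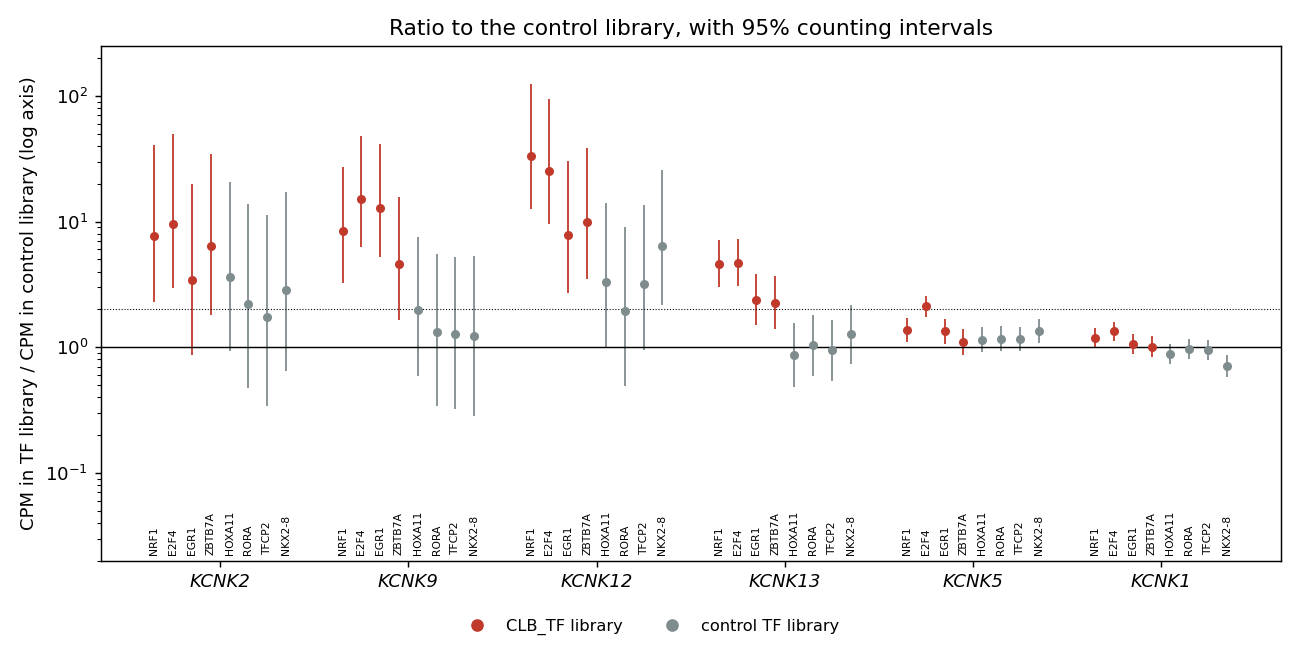
Ratio of CPM in each TF library to CPM in the control library for KCNK2, KCNK9, KCNK12, KCNK13, KCNK5 and KCNK1 on a log axis, with exact 95% counting intervals; red marks CLB_TF and grey control TF libraries, the solid line a ratio of 1 and the dotted line a ratio of 2. The intervals of KCNK12 reach 123 at a control count of 4, and those of KCNK1 stay between 0.574 and 1.58.

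Among the TASK genes, KCNK9 (TASK-3, ENSG00000169427, chr8:140613081-140715299, minus strand), the acid-sensitive channel of cerebellar granule neurons, had 5 counts in the control library. It had 36 in NRF1, 74 in E2F4, 56 in EGR1, 18 in ZBTB7A, 9 in HOXA11, 6 in RORA, 6 in TFCP2 and 5 in NKX2-8. All 4 CLB_TF libraries (1.24 to 4.14 CPM) were above all 4 control TF libraries (0.332 to 0.535 CPM). The KCNK9 ratio to the control was 15.2 in E2F4 (6.24 to 48.3), 12.9 in EGR1 (5.20 to 41.2), 8.35 in NRF1 (3.27 to 27.3) and 4.58 in ZBTB7A (1.64 to 15.8). The KCNK9 level in EGR1 (3.50 CPM, 2.64 to 4.54) was above that in NRF1 (2.27 CPM, 1.59 to 3.14) with overlapping intervals, whereas KCNK10, KCNK12 and KCNK13 were lower in EGR1 than in NRF1.

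KCNK3 (TASK-1, ENSG00000171303, chr2:26915558-26956288, plus strand), the acid-sensitive channel of the carotid body and pulmonary artery, rose in the NRF1 library and was called in no other. It had 2 counts in the control, 37 in NRF1, 13 in E2F4, 12 in EGR1, 9 in ZBTB7A, 2 in HOXA11, 3 in RORA, 0 in TFCP2 and 10 in NKX2-8. The NRF1 library stood apart from the other 8 libraries, at a level of 2.33 CPM and a ratio of 21.5 to the control (5.53 to 184). In E2F4, EGR1, ZBTB7A and NKX2-8 the ratio lay between 5.72 and 6.89, but the level stayed under 1 CPM. The 1 CPM minimum, rather than the size of the ratio, therefore separated NRF1 from those 4 libraries in the calls.

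KCNK15 (TASK-5, ENSG00000124249, chr20:43374421-43380954, plus strand) has not been shown to give a current by itself. Its counts were 16 in the control, 16 in NRF1, 17 in E2F4, 19 in EGR1, 10 in ZBTB7A, 10 in HOXA11, 10 in RORA, 4 in TFCP2 and 16 in NKX2-8. KCNK15 was called in no library, and the lowest one, TFCP2, had a ratio of 0.263 to the control (0.0640 to 0.816) with both levels under 1 CPM, which a minimum of 0.5 CPM would call fallen. Of the 2599 exon bases of KCNK15, 506 (19.5%) are shared with RIMS4 on the opposite strand, which had 1176 counts in the control and 4276 in the E2F4 library. The sources used here do not say whether reads were assigned by strand, so reads of the pair may not be told apart, although KCNK15 had 17 counts in that E2F4 library.

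KCNK5 and KCNK1 were the most abundant members. KCNK5 (TASK-2, ENSG00000164626, chr6:39156749-39197226, minus strand), an alkaline-activated channel of the renal proximal tubule, had 154 counts in the control, 183 in NRF1, 316 in E2F4, 179 in EGR1, 133 in ZBTB7A, 161 in HOXA11, 162 in RORA, 170 in TFCP2 and 170 in NKX2-8. The E2F4 library stood above the other 8, at 17.7 CPM, which was 2.11-fold (1.74 to 2.58) the 8.37 CPM of the control. The other 7 TF libraries lay between 9.19 and 11.5 CPM, all above the control library, and none was called.

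KCNK1 (TWIK-1, ENSG00000135750, chr1:233749750-233808258, plus strand) gives weak inwardly rectifying currents and is known for recycling through endosomes. It had 257 counts in the control, 264 in NRF1, 333 in E2F4, 237 in EGR1, 204 in ZBTB7A, 207 in HOXA11, 224 in RORA, 231 in TFCP2 and 149 in NKX2-8. The levels of all 4 CLB_TF libraries (14.1 to 18.6 CPM) lay above those of the 4 control TF libraries (9.89 to 13.5 CPM), with the control library at 13.97 CPM between them. The ratio to the control was 1.33 in E2F4 (1.13 to 1.58) and 0.708 in NKX2-8 (0.574 to 0.869), and neither was called. KCNK6 (TWIK-2, ENSG00000099337, chr19:38810484-38822716, plus strand) had 5 counts in all, with at most 2 in any library, and gave no fold change.

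The K2P genes outside the chosen 10 were near or at 0. KCNK16 and KCNK17, pancreatic members of the TALK group that neighbour KCNK5 on chromosome 6, had 0 counts in all 9 libraries, and KCNK4 (TRAAK) and KCNK18 (TRESK) had 3 and 5 counts in all. KCNK7 had 0 counts in the control library and 3 to 6 in each of the 8 TF libraries, a range in which no fold change is given.

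In CPM per kb of exon, the scale on which genes can be set against each other, the mean level over the 9 libraries was highest for KCNK1 (3.89), followed by KCNK5 (2.91), KCNK13 (1.31), KCNK12 (0.331), KCNK9 (0.325), KCNK15 (0.308), KCNK2 (0.179), KCNK10 (0.127), KCNK3 (0.0983) and KCNK6 (0.0054). No pair of neighbours in this order had ranges over the 9 libraries that were apart. Within libraries, KCNK5 was above KCNK13 and KCNK13 above KCNK12 in 9 of 9, and KCNK1 above KCNK5 in 8 of 9. KCNK12 and KCNK9 changed places, with KCNK12 higher in 4 of 9.

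The summed level of the 10 genes was 25.6 CPM in the control library, 51.6 in NRF1, 63.1 in E2F4, 37.9 in EGR1 and 32.8 in ZBTB7A, and 25.9 to 27.1 in the 4 control TF libraries. KCNK1 and KCNK5 together made up 84.5% of the summed CPM per kb in the control library, 57.0% in NRF1, 60.9% in E2F4, 68.1% in EGR1 and 70.4% in ZBTB7A. In HOXA11, RORA and TFCP2 that share was 83.3 to 86.8%, and in NKX2-8 it was 77.1%. The other 8 genes, summed, were 8.34-fold the control in E2F4 (6.35 to 11.1), 7.29-fold in NRF1 (5.53 to 9.77), 3.72-fold in EGR1 (2.76 to 5.07) and 2.97-fold in ZBTB7A (2.18 to 4.10). For NKX2-8 the ratio was 1.84 (1.31 to 2.604), and for HOXA11, RORA and TFCP2 it lay between 0.982 and 1.26 with intervals that took in 1. In the bulk RNA, fewer cells with a transcript and less transcript per cell cannot be told apart.

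**Figure D3:**
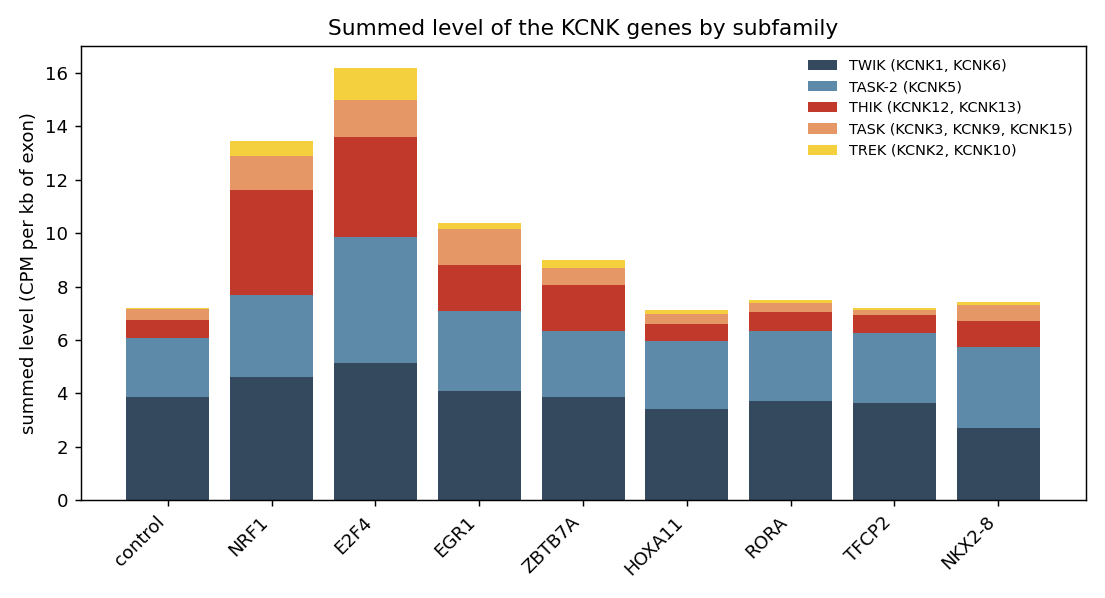
Summed level of the KCNK genes by subfamily in each library, in CPM per kb of exon; bar segments stand for the TWIK, TASK-2, THIK, TASK and TREK genes. The THIK segment went from 0.658 in the control library to 3.93 in NRF1 and 3.73 in E2F4.

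Of the 10 KCNK genes, 6 (KCNK2, KCNK3, KCNK6, KCNK9, KCNK10 and KCNK12) lay under 0.5 CPM in the control library, so that reaching 1 CPM was by itself close to a call. Of these 6, 5 reached 1 CPM in the NRF1 library, 4 in E2F4, 3 in ZBTB7A, 2 in EGR1, 1 in NKX2-8 and 0 in HOXA11, RORA and TFCP2. Over the 6901 protein-coding genes under 0.5 CPM in the control, the share that reached 1 CPM was 4.72% in NRF1, 1.32% in E2F4, 2.01% in EGR1, 1.1% in ZBTB7A, 0.667% in HOXA11, 0.275% in RORA, 0.246% in TFCP2 and 1.72% in NKX2-8. The members were chosen with their fold changes against this control known, so nothing is read from their counts beside these shares.

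Setting the TF libraries against each other leaves the control library out. All 4 CLB_TF libraries were above all 4 control TF libraries in level for 5 of the 10 KCNK genes (KCNK1, KCNK9, KCNK10, KCNK12 and KCNK13) and below them for 0. Of 15423 genes at 1 CPM or more in some TF library, 2.68% had the CLB_TF libraries above and 4.22% below. Of the 10 KCNK genes, 9 reached that level, all but KCNK6. The genes were chosen with fold changes of these libraries known, so nothing is read from their count against these shares. Mean levels in the CLB_TF and control TF libraries were 5.45 and 1.62 CPM for KCNK13, 4.13 and 0.804 for KCNK12, 2.79 and 0.393 for KCNK9, 2.34 and 0.0294 for KCNK10, and 16.0 and 12.2 for KCNK1. For KCNK2, KCNK3, KCNK5 and KCNK15 the groups overlapped.

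Against the median of the other 7 TF libraries, the same 6 KCNK genes rose in the NRF1 library (KCNK2, KCNK3, KCNK9, KCNK10, KCNK12 and KCNK13), and 5 rose in E2F4, without KCNK5. KCNK9 was the single gene that rose in EGR1 and in ZBTB7A, and no KCNK gene rose in the 4 control TF libraries. KCNK9, KCNK12 and KCNK13 fell in HOXA11, RORA and TFCP2, and KCNK9 fell in NKX2-8 (log2FC -1.59). For each control TF library, 4 of the other 7 libraries were CLB_TF libraries. Over all genes, the share that rose by this reference was 6.44% in NRF1, 2.66% in E2F4, 1.37% in EGR1, 0.827% in ZBTB7A, 0.375% in HOXA11, 0.0925% in RORA, 0.0851% in TFCP2 and 1.34% in NKX2-8. The share that fell was 0.0539% in NRF1, 0.289% in E2F4, 0.189% in EGR1, 0.262% in ZBTB7A, 0.368% in HOXA11, 0.519% in RORA, 0.56% in TFCP2 and 0.871% in NKX2-8. Of the 80 log2FC values, 23 changed sign with the reference, among them the called rise of KCNK12 in NKX2-8, which went from 2.16 against the control to -0.25 against the other TF libraries.

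**Figure D4:**
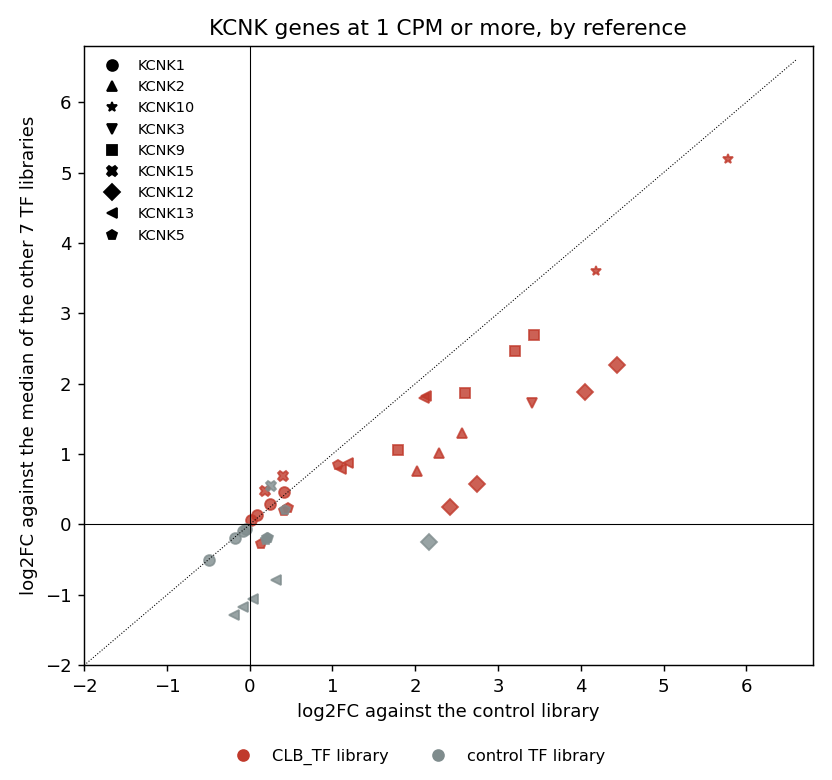
log2FC of each KCNK gene that reached 1 CPM, against the control library (x axis) and against the median of the other 7 TF libraries (y axis), with 1 symbol per gene; red marks CLB_TF and grey control TF libraries, and the dotted line equal values. KCNK10 in E2F4 lay at 5.78 and 5.20, and KCNK12 in NRF1 at 4.43 and 2.27.

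For KCNK10 and each KCNK gene averaging 1 CPM or more, the protein-coding genes whose log2 CPM followed it most closely over the 9 libraries were taken among 12617 candidates. KCNK10 was followed by UBE2QL1 (Pearson r 0.99), CAMK2B (0.98) and PHF21B (0.97), all of which were highest in E2F4. KCNK12 was followed by STON2 (0.99), ADGRA1 (0.97) and PAX5 (0.96), and KCNK13 by ADAMTS8 (0.98), NTSR1 (0.96) and CPNE5 (0.96). For KCNK9 the closest genes were CACNA1C, CNR1 and HRH3 (0.94 each), which include a calcium channel subunit and a cannabinoid and a histamine receptor. KCNK1 was followed by RUNX2 (0.98) and ZNF704 (0.97), and KCNK5 by MTMR10 (0.98), INA (0.98) and BICDL1 (0.97). Between members, the highest r values were 0.95 for KCNK10 and KCNK13, 0.93 for KCNK12 and KCNK13 and 0.93 for KCNK2 and KCNK12. The lowest was -0.23, for KCNK6 and KCNK15, and among pairs without KCNK6 it was 0.18, for KCNK1 and KCNK15. All these values are over the same 9 libraries and are a description.

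The genes beside the risen KCNK genes were mostly not called. SPATA7, next to KCNK10, had log2FC values between -0.21 and 0.21, and TDP1 and PSMC1, on either side of KCNK13, between -0.25 and 0.01. MSH6, next to KCNK12, had values between -0.16 and 0.01. EPCAM, on the other side of KCNK12, rose in the NRF1 library, with 83 counts against 44 in the control (log2FC 1.09), and SLC35F3, next to KCNK1, rose there with 92 against 16 (2.58). CATSPERG, next to KCNK6, rose in NRF1, EGR1, HOXA11, RORA and NKX2-8. The lncRNA on the opposite strand that shares 96 of the 8258 exon bases of KCNK10 had 0 counts in all libraries.

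Of 24 genes for proteins that bind, traffic or regulate K2P channels, such as the 14-3-3 proteins, S100A10, COPB1, the anchoring protein AKAP5 and the ARF6 activator PSD, 22 or 23 reached 1 CPM in each comparison and at most 1 rose. PSD rose in the NRF1 library (177 counts against 64, log2FC 1.65) and AKAP5 in E2F4 (442 against 160, 1.50). SFN (14-3-3 sigma) rose in HOXA11 (33 against 11, 1.53) and NKX2-8 (140 against 11, 3.71). Over all genes that reached 1 CPM, the share that rose was 8.24% in NRF1, 3.68% in E2F4, 1.17% in HOXA11 and 2.83% in NKX2-8. In the libraries where none of the 24 rose, that share was 0.491% (TFCP2) to 2.5% (EGR1). None of the 24 fell in any TF library, where the share over all genes that fell was 0.185% (TFCP2) to 0.879% (NKX2-8). Nothing is read from these counts about the listed genes. Their median log2FC lay between -0.11 and -0.0083, beside the medians over all genes given above.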

How the data were processed

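RNA was measured by sequencing in 9 libraries of 293T cells. The authors deposited 1 table of raw read counts per gene. Per the submitters' processing notes the tools were FastQC 0.11.2, STAR 2.6.0c and featureCounts 1.6.3, and the gene table follows GRCh37. How strand was handled in counting: not given in the sources used here. Labels name TRIzol and a directional NEBNext Ultra II kit, the methods another extraction kit.

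From the deposited counts, CPM was computed with TMM factors (edgeR 4.0.16, R 4.3.3) over all genes. The log2FC used a prior count of 2, and a call needed a 2-fold difference and 1 CPM in the higher library. Ratios carry exact conditional binomial 95% intervals and levels exact Poisson ones (scipy 1.17.1), and a count of 0 was set to a floor of 3 counts for bounds. Total counts ran from 14177970 to 18915400, and all intervals and floors cover counting error only. Each group, taken from the labels, had 1 library, so no test was run. The steps were tested on simulated counts with counting noise alone, for genes averaging at least 5 CPM. Of the risen members only KCNK5 averaged that much, so the call was not tested at the levels of the others. The genes and lists were chosen with earlier results of these data known. All 10 members were described, and the 3 genes of highest r were named for KCNK10 and members with a mean of 1 CPM. Alternatives were library totals, DESeq2 1.42.0 size factors, prior counts of 0.5 and 5, minima of none, 0.5 and 5 CPM, an interval that leaves out 1, and the other 7 TF libraries as reference. PECAM1 was not analysed here. A few items, 1 of them among the genes of highest r, are not reported here.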

Additional observations from a re-analysis of the deposited data

How the results depend on the processing

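Against the control library, the counts of KCNK genes called were 6 (NRF1), 6 (E2F4), 3 (EGR1), 4 (ZBTB7A), 0 (HOXA11, RORA, TFCP2) and 1 (NKX2-8). With a minimum of 0.5 CPM they were 7 in E2F4, 5 each in EGR1 and ZBTB7A and 2 each in HOXA11, TFCP2 and NKX2-8. With no minimum they were 7 in E2F4, 6 each in EGR1 and ZBTB7A, 2 each in HOXA11 and TFCP2 and 3 in NKX2-8. In TFCP2, KCNK15 was called fallen at both settings, and the other added calls were rises. With a minimum of 5 CPM, which fewer genes reach, they were 2 in NRF1, 4 in E2F4 and 0 in EGR1, ZBTB7A and NKX2-8. At each minimum, libraries not named kept their counts. With the median of the other 7 TF libraries as reference they were 5 in E2F4 and 1 each in EGR1 and ZBTB7A (risen). They were 3 each in HOXA11, RORA and TFCP2 (fallen). In NKX2-8, KCNK9 was called fallen while KCNK12 turned to a log2FC of -0.25. Library totals and DESeq2 size factors turned the sign of 0 of the 80 log2FC values and shifted each by at most 0.15 and 0.023, although library totals put the median of all genes in NRF1 at 0.13. Prior counts of 0.5 and 5 also turned 0 and shifted values by up to 1.98 and 1.28, with KCNK10 in E2F4 at 7.76 and 4.50 and in NRF1 at 6.12 and 2.98. The other reference turned the sign of 23 of the 80, 1 of them a called value, and 24 uncalled or same-sign values left the counting interval of the ratio to the control. Among uncalled genes above 1 CPM, the interval of the ratio to the control left out 1 for KCNK5 and KCNK1. For KCNK5 it lay above 1 in NRF1 (1.11 to 1.72), EGR1 (1.07 to 1.67) and NKX2-8 (1.08 to 1.69). For KCNK1 it lay above 1 in E2F4 (1.13 to 1.58) and below 1 in NKX2-8 (0.574 to 0.869). The depth limits KCNK2, KCNK3, KCNK9, KCNK10 and KCNK12, which had 0 to 5 counts in the control library. No paired analysis was possible because each condition had 1 library.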
